A study of Mus musculus with 7 samples.

Results

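The 10 genes described here belong to the pre-mRNA splicing machinery. These genes were measured in bead-isolated cells from fetal mouse livers, with and without a Cre-driven Brd9 knockout. They are Sf3b1, Sf3b2, Sf3a1, U2af1, U2af2, Zrsr2, Srsf1, Srsf2, Luc7l2 and Prpf8, chosen as a named set and not by a threshold on their values, though with earlier results of these data known. All 10 have a row among the 35976 symbols of the count table and are among the 14679 genes tested. The question put to them was whether their own transcript levels differ between these groups. None of the 10 passed the test of a difference between the groups. For each of them the 95% interval of the change lay inside 1.25-fold in both directions.

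The libraries came from lineage-negative cells of C57BL/6 fetal liver at E14.5, isolated on magnetic beads; these are the cells left when those with markers of mature blood lineages are taken away. The 3 control libraries are labelled CD45.2(+) Brd9fl/fl, so both Brd9 alleles carry loxP sites but no recombinase is present. The 4 knockout libraries are labelled CD45.2(+) Vav1-iCre Brd9fl/fl, where Vav1 regulatory sequence drives the Cre recombinase in blood cells. The mothers of the litters carried the recombinase and the fathers did not, per the series' design text. All animals carry the floxed alleles, every knockout library and no control carries the recombinase, and the effect of the recombinase cannot be told apart from that of Brd9 loss. Whether 1 embryo or several went into a library is not in the labels. A p-value here therefore measures how these libraries vary, and part of that spread may be technical.

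Introns are removed by the spliceosome, which is built from small nuclear ribonucleoproteins (snRNPs). The U1 snRNP marks the 5′ splice site, the U2AF heterodimer reads the pyrimidine tract and the AG of the 3′ splice site, and the U2 snRNP, with its SF3a and SF3b protein complexes, pairs with the branch point. SR proteins bind exons and help these factors settle, and the U5 snRNP brings PRPF8, the scaffold of the catalytic centre. In human myelodysplastic syndromes and related leukaemias, SF3B1, SRSF2, U2AF1 and ZRSR2 are the splicing genes most often mutated, PRPF8 and LUC7L2 are mutated or lost less often, and the others in the set are their partners or relatives. Mutant SF3B1 is known to splice a poison exon into the BRD9 transcript and thereby lower BRD9, which is why these genes and Brd9 are set side by side.

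In SF3B1, SRSF2 and U2AF1 the disease mutations cluster at a few residues, and gene-level counts cannot read them or any splice choice. One such position of each gene is shown from the mouse reference transcripts (GENCODE M21, GRCm38), as coding sequence 5′ to 3′ with the codon in capitals. The Sf3b1 codon, K700, lies in exon 15 (chr1:55000353-55000379, minus strand); the Srsf2 codon, P95, in exon 1 (chr11:116852633-116852659, minus strand); and the U2af1 codon, S34, in exon 2 (chr17:31654997-31655023, minus strand). All 3 are coding exons.
Sf3b1: gatgagcagcagAAAgttcggaccatc
Srsf2: cgctacggccgcCCGcccgactcgcac
U2af1: ggagacagatgtTCTcggttgcacaat

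Total counts ran from 18748885 to 23571878 per library, and edgeR's quasi-likelihood test called 82 of 14679 tested genes at a Benjamini-Hochberg adjusted p under 0.05, which is 0.559% of them. Brd9 was 33.1 ± 3.0 CPM in the controls (SD, n = 3) and 11.5 ± 2.0 CPM in the knockouts (SD, n = 4), with every library on the side its label gives. CPM is the read count as a rate of the library's total, scaled by TMM. Summed over 8 neutrophil genes, the controls held 3889 to 6882 CPM and the knockouts 1205 to 2558 CPM. Mpo alone held 2661 to 4609 CPM in the controls. Mpo, Elane, Prtn3, Ctsg and Camp were lower in every knockout than in any control. For Ltf, Lcn2 and Ngp the groups overlapped. Knockout replicate 3 had the highest Ltf (209 CPM) and Lcn2 (128 CPM) of all libraries. The 8 erythroid genes summed to 1660 to 3021 CPM in controls and 3074 to 4242 CPM in knockouts. No gene of either list was at 0 in any library. The 8 macrophage genes summed to 148 to 238 CPM in controls and 68.7 to 118 in knockouts, and the 8 hepatocyte genes overlapped (9918 to 17442 and 12631 to 22428 CPM). The 6 lymphoid genes summed to 25.0 CPM in knockout replicate 3, where Cd3g had 18.2 CPM, and to 1.34 to 2.65 CPM in the other 6 libraries, with up to 2 of them at 0. The 7 progenitor markers were all present in each library and summed to 856 to 1162 CPM in controls and 652 to 894 CPM in knockouts. Kit among them had 267 to 313 CPM in the controls and 160 to 212 CPM in the knockouts. Myb had 324.1 to 397.7 CPM in the controls and 245.2 to 323.8 CPM in the knockouts. Gata2 went the other way, with 47.0 to 88.5 CPM in the controls and 68.2 to 96.0 CPM in the knockouts. For Gata2, Ptprc, Cd34, Runx1 and Flt3 the groups overlapped. In every library the hepatocyte sum was above the progenitor sum, so the RNA was not from blood progenitors alone. The share of each gene's reads that came from cells other than blood cells was not measured. The intervals below therefore describe this mix of cells and not blood cells alone. In these bulk samples fewer cells of a type and less RNA per cell cannot be told apart, and the part of cell makeup in the values below was not tested.

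Knockout replicate 3 also stood apart from the other libraries by transcript length. Over 13665 tested genes with an annotated length, the Spearman correlation between transcript length and a gene's log2 deviation from its mean over all 7 libraries was -0.42 in that library and between -0.034 and 0.21 in the others. This is a correlation across genes of 1 library, given as a description. In knockout replicate 3 the 4556 shortest genes, up to 2490 bases, had a median deviation of 0.14 and the 4554 longest, from 4170 bases, one of -0.16.

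**Figure D1:**
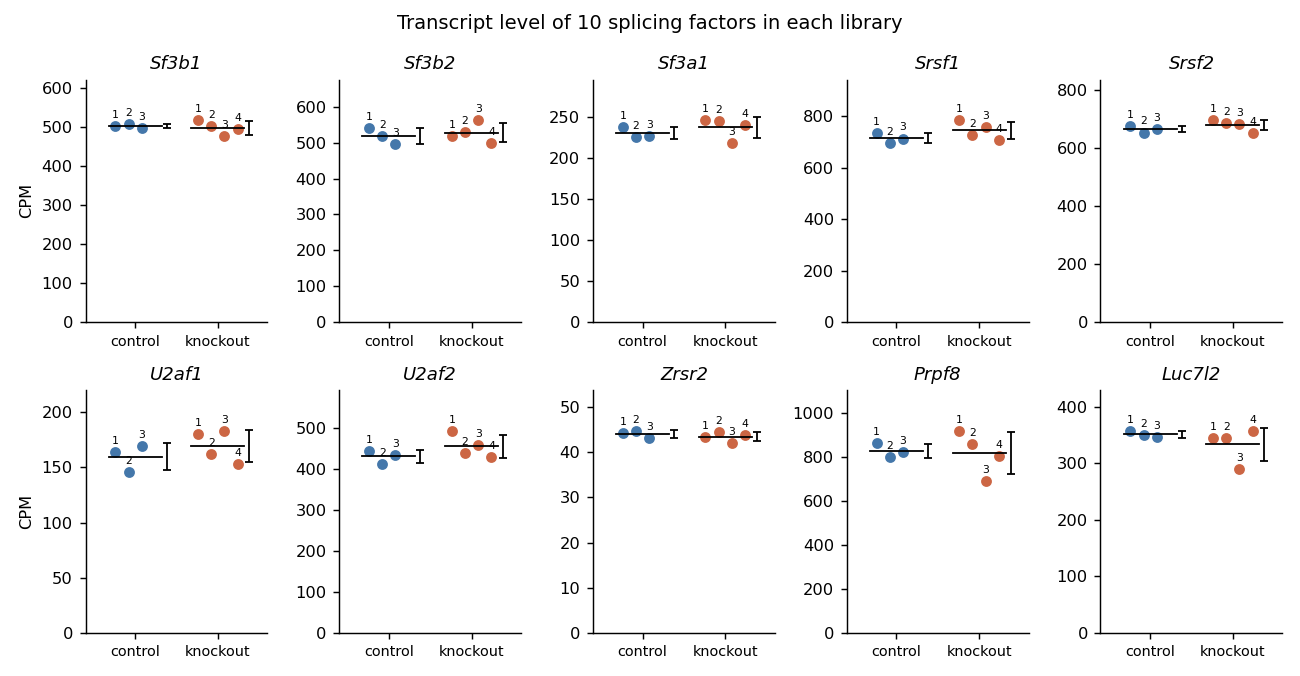
Transcript level in CPM (vertical axis, from 0) of each of the 10 splicing factors in the 3 control and 4 knockout libraries; points are libraries with their replicate numbers, horizontal lines are group means and error bars are SD. The groups overlap in all 10 panels, and knockout replicate 3 is the lowest library in 5 of them, by the widest gap for Prpf8 and Luc7l2.

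Sf3b1 encodes the large SF3b subunit that clamps the branch point helix. It had 503, 509 and 499 CPM in control replicates 1 to 3 against 519, 504, 477 and 496 CPM in knockout replicates 1 to 4. The control values lay within those of the knockouts, between the highest (replicate 1) and the lowest (replicate 3). The group means were 503 ± 5 CPM (SD, n = 3) and 499 ± 17 CPM (SD, n = 4), a log2 fold change of -0.013 (SE 0.073, 95% interval -0.18 to 0.15, edgeR adjusted p = 0.966). A change of more than 1.13-fold in either direction lay outside that interval. The gene is on the minus strand of chromosome 1 from 54985169 to 55027481.

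The SF3b partner Sf3b2, which holds the complex to the pre-mRNA beside the branch point, had 542, 518 and 496 CPM in the controls against 518, 528, 563 and 499 CPM in the knockouts. Knockout replicate 3 was the highest library here, where it was the lowest for Sf3b1. The log2 fold change was 0.024 (SE 0.080, interval -0.16 to 0.20). Sf3a1, a subunit of SF3a, which joins the U2 snRNP to SF3b, had 238, 225 and 226 CPM in the controls against 246, 245, 218 and 240 CPM in the knockouts. Of its 4 knockout libraries 3 lay above every control, and replicate 3 lay below them all, and the log2 fold change was 0.046 (SE 0.075, interval -0.12 to 0.21). The number of Sf3b1 reads per Sf3b2 read, which needs no scaling between libraries, was 0.972 ± 0.040 in the controls and 0.949 ± 0.071 in the knockouts.

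The U2AF subunits had the largest positive values of the set in this fit. That order did not hold without knockout replicate 3, where Sf3a1 (0.083) stood above both. It did not hold with the length trend removed either, where Srsf1 (0.11), Sf3a1 (0.082), Prpf8 (0.077) and Sf3b1 (0.064) stood above both. Nor did it hold without control replicate 2, where U2af1 (0.022) stood below Srsf1 (0.038) and Sf3a1 (0.030). U2af1, the small subunit that reads the AG at the end of the intron, had 164, 146 and 170 CPM in the controls against 180, 162, 183 and 153 CPM in the knockouts. The groups overlapped, with control replicate 2 lowest and knockout replicates 1 and 3 highest. Its log2 fold change was 0.085 (SE 0.091, interval -0.12 to 0.29, edgeR adjusted p = 0.771), its range with 1 library left out was 0.022 to 0.13, and 1.22-fold was the farthest end of any interval among the 10 genes. U2af2, the large subunit that binds the pyrimidine tract, had 444, 412 and 434 CPM against 492, 438, 458 and 429 CPM. Knockout replicates 1 and 3 lay above the controls and the other knockouts among them; the log2 fold change was 0.079 (SE 0.081, interval -0.10 to 0.26).

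The proportion of the subunits differed by less than its spread. There were 0.371 ± 0.018 U2af1 reads per U2af2 read in the controls (SD, n = 3) and 0.373 ± 0.019 in the knockouts (SD, n = 4). Of the 10 genes U2af1 shares most of its sequence with other annotated transcripts. Of the 972 windows of 75 bases along its reference coding transcript, 53.9% also occur exactly in transcripts annotated to other genes, and 51.7% occur in the single gene Gm10232. Neither Gm10232 nor the other 2 genes that share windows with U2af1 has a row in the count table. How the authors' counting treated reads that map to several places is not given in the sources used here.

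Zrsr2, a relative of U2af1 that serves the 3′ splice site of minor (U12-type) introns, was the lowest of the set per length of exon and also the least variable. It had 44.2, 44.8 and 43.2 CPM in the controls against 43.4, 44.5, 42.1 and 43.8 CPM in the knockouts. All 7 libraries lay within 3 CPM of each other. The within-group SD of 0.031 on the log2 scale was smaller than in 99.7% of tested genes. Zrsr2 had 794 to 1081 reads per library, and the part of counting noise in this spread was not tested. The log2 fold change was -0.020 (SE 0.073, interval -0.18 to 0.15). Zrsr2 lies on the X chromosome (163935443 to 163958661, minus strand), and the labels do not give the sex of the embryos. Xist, the RNA made from the inactive X, stood at 756, 0.373 and 802 CPM in the controls and at 0.109, 740, 0.189 and 0.292 CPM in the knockouts. Zrsr2 was 44.2, 43.2 and 44.5 CPM in the 3 libraries with high Xist and 42.1 to 44.8 CPM in the other 4.

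Mice also carry Zrsr1, a single-exon copy of Zrsr2 that lies within Commd1 on chromosome 11. The pair is shown because such copies can exchange reads. The first stretch of 60 coding bases that aligns without a gap is printed 5′ to 3′, with capitals where the copies differ, at 20 of 60 positions. For Zrsr2 they span exons 1 and 2 (chrX:163957959-163958296, minus strand) and for Zrsr1 the single exon (chr11:22973243-22973302, plus strand).
Zrsr2: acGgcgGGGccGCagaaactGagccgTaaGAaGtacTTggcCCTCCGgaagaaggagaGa
Zrsr1: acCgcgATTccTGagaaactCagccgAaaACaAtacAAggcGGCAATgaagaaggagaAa
Over 1279 aligned coding bases, 80.6% were identical, a higher share than in the stretch printed above. No window of 75 bases of Zrsr2 occurred exactly in another gene's transcript. Of the windows of Zrsr1, 6.04% occurred in a transcript of Commd1. Zrsr1 had 8.62 ± 0.30 CPM in the controls against 8.11 ± 1.51 CPM in the knockouts, a log2 fold change of -0.088 (SE 0.17, interval -0.48 to 0.30). There were 5.12 ± 0.27 Zrsr2 reads per Zrsr1 read in the controls and 5.52 ± 1.19 in the knockouts.

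Srsf1 and Srsf2 are the SR proteins of the set. Srsf1, which binds purine-rich exon elements, had 736, 697 and 713 CPM in the controls against 785, 727, 759 and 709 CPM in the knockouts. Knockout replicates 1 and 3 lay above the controls, and the log2 fold change was 0.058 (SE 0.078, interval -0.12 to 0.23). Srsf2, whose mutant form in disease prefers other exon elements, had 675.9, 654.3 and 666.9 CPM against 697.0, 686.3, 684.2 and 653.5 CPM. Knockout replicates 1 to 3 lay above every control and replicate 4 just under the lowest one, with a log2 fold change of 0.031 (SE 0.074, interval -0.13 to 0.20). Reads of Srsf1 per read of Srsf2 were 1.07 ± 0.01 and 1.09 ± 0.03. Srsf2 shares 460 exonic bases with Mettl23 and 288 with Mfsd11, both on the opposite strand; those genes had 3845 and 2506 reads over all libraries, against 100789 for Srsf2.

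Luc7l2, a U1-associated protein that bears on 5′ splice site choice, had 358, 349 and 347 CPM in the controls against 345, 344, 291 and 356 CPM in the knockouts. The other 3 knockouts lay inside the control range or within 3 CPM of it and replicate 3 lay far below it. The log2 fold change, the lowest of the set, was -0.073 (SE 0.088, interval -0.27 to 0.13, edgeR adjusted p = 0.800). Without knockout replicate 3 it was -0.012. Prpf8 had 863, 799 and 823 CPM in the controls against 919, 859, 693 and 804 CPM in the knockouts, and here too replicate 3 was the lowest library. Its log2 fold change of -0.016 (SE 0.11, interval -0.25 to 0.22) became 0.056 without that library.

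**Figure D2:**
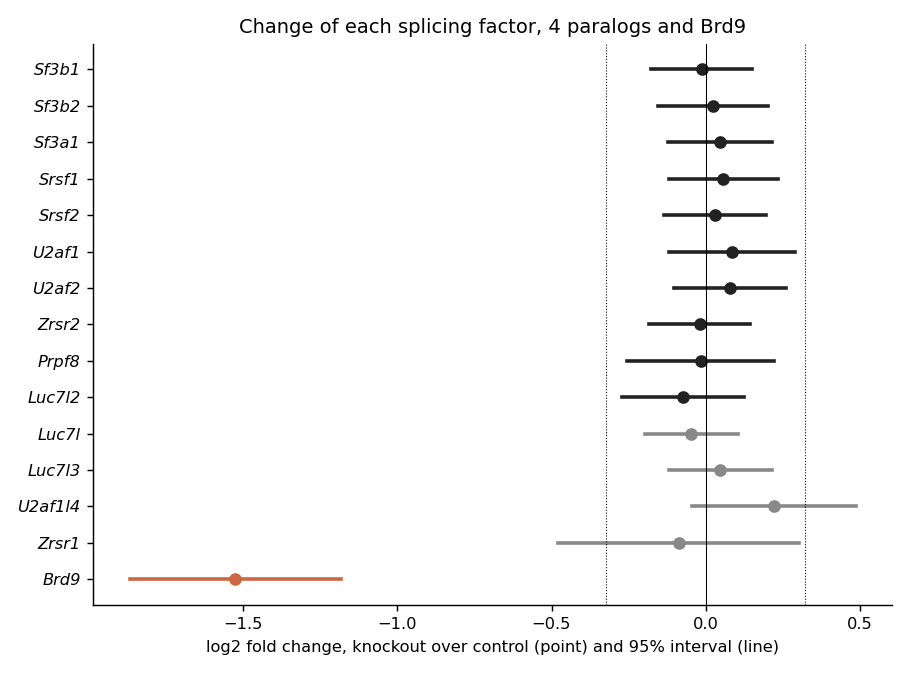
Log2 fold change of the 10 splicing factors (black), of 4 of their paralogs (grey) and of Brd9 (red), knockout over control on the horizontal axis; points are estimates from edgeR, lines are 95% intervals and dotted lines mark 1.25-fold. All 10 black intervals cross 0 and lie between the dotted lines, while Brd9 is at -1.53.

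Taken over the whole fit, 0 of the 10 genes passed at an adjusted p under 0.05 (0.559% of all tested genes did), and 0 passed at an unadjusted p under 0.05, where 10.9% of tested genes did. With DESeq2 0 passed, against 2.28% of its tested genes, and with limma-voom 0 passed. None of the 10 had groups that did not overlap, where 11.2% of tested genes had. Of the 10 values, 6 were above 0 and 4 below. Their median was 0.027 (log2), and that of all tested genes was 0.011; the median of the 10 ran from 0.013 without control replicate 3 to 0.052 without control replicate 1. In the authors' deposited table the same genes have log2 fold changes from -0.072 (Luc7l2) to 0.086 (U2af1) and adjusted p-values from 0.892 to 0.992.

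The intervals of the 10 genes were narrow. Together the genes held between 86862 and 105154 reads per library, 0.427% to 0.463% of the total. All 10 intervals lay inside 1.25-fold, as did those of 25.2% of all tested genes and of 52.6% of the 5098 genes at or above the mean level of Zrsr2. The within-group SD on the log2 scale had a median of 0.069 over the 10 genes, 0.19 over all tested genes and 0.12 over those 5098 genes. Neither of these larger sets is matched to the 10 genes by level. Zrsr2 had a mean of 43.7 CPM, and the others ran from 165 (U2af1) to 823 CPM (Prpf8). U2af1 (0.12), Prpf8 (0.14) and Luc7l2 (0.10) were the most variable of the 10. The intervals of 6 genes stayed inside 1.25-fold in all 17 alternatives that give one; those of U2af1, U2af2, Prpf8 and Luc7l2 did so in 12, 15, 15 and 16. Without control replicate 3 the number inside was 6 of 10, and U2af1 then reached 1.31-fold.

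The 10 genes did not vary together over the libraries. Srsf1, Srsf2, U2af1 and U2af2 formed one group, with Pearson correlations of log2 CPM from 0.81 (Srsf2 with U2af1) to 0.98 (Srsf1 with U2af2) over the 7 libraries. Sf3b1 went with Prpf8 (0.91), Luc7l2 (0.76), Sf3a1 (0.67) and Zrsr2 (0.66). Across those groups U2af1 and Zrsr2 were opposed (-0.82), and Sf3b2 was opposed to Luc7l2 (-0.69). These are descriptions over 7 libraries that share scaling and the length trend above. In knockout replicate 3, Sf3b1, Sf3a1, Zrsr2, Prpf8 and Luc7l2 lay 0.066 to 0.27 below the control mean (log2). Their longest annotated transcripts run from 3867 (Zrsr2) to 7442 bases (Prpf8). Sf3b2, Srsf1, Srsf2, U2af1 and U2af2 lay 0.040 to 0.20 above it; their longest transcripts run from 1046 to 3222 bases, except for Srsf1 with 5362.

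**Figure D3:**
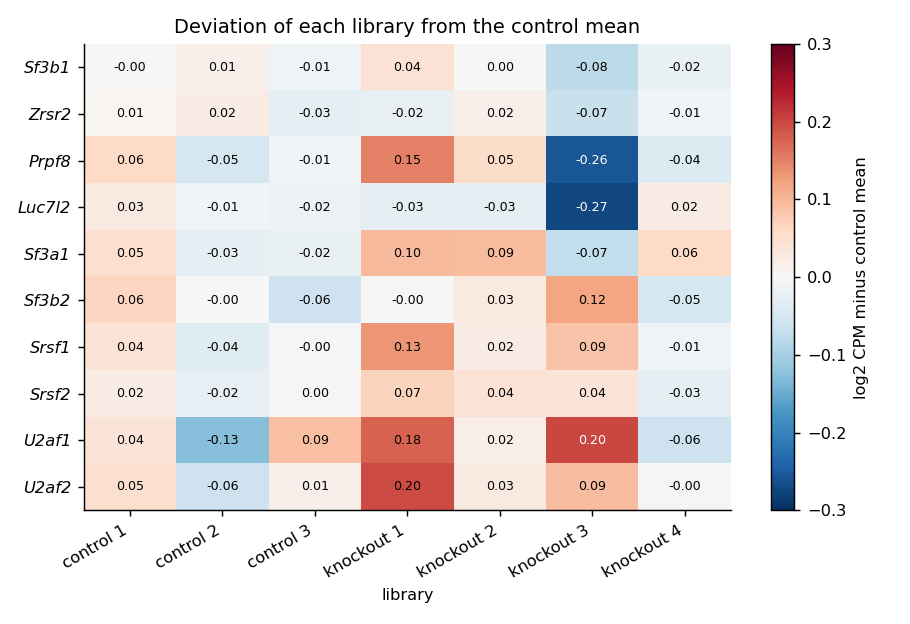
Difference of log2 CPM from the control mean (colour and printed value) for each of the 10 genes (rows) in each of the 7 libraries (columns). Knockout replicate 3 holds the lowest values, -0.26 for Prpf8 and -0.27 for Luc7l2, and also the highest, 0.20 for U2af1.

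A fit with each library's length trend removed was added once these values were known, and 0 of the 10 passed in it. Sf3b1 then stood at 0.064, Prpf8 at 0.077 and Srsf2 at -0.014, each with its sign turned, while U2af1 moved from 0.085 to 0.014. Srsf1 moved from 0.058 to 0.11, the highest of the 10. All 10 intervals in that fit lay inside 1.25-fold.

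The genes whose pattern over the 7 libraries was most like that of Sf3b1, among 8978 with a mean of at least 10 CPM, were Ubap2l (Pearson r = 0.99), Pcgf3 (0.98), Ankib1 (0.98), Gtf3c4 (0.98) and Chd1 (0.97). With 7 libraries such values are a description only. Prpf8 came in place 46 in that order, and it was the nearest of the other 9 genes. Those 5 genes had log2 fold changes between -0.061 and -0.0065, and all 5 turned sign without knockout replicate 3.

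Levels of different genes can be set side by side only per length. As reads per kilobase of annotated exon, rescaled so that all genes with a length sum to the same in each library (the TPM scale), the order over all 7 libraries was Srsf2 (789), Srsf1 (444), Prpf8 (382), U2af2 (373), Sf3b2 (265), U2af1 (220), Sf3b1 (153), Sf3a1 (132), Luc7l2 (98.0) and Zrsr2 (21.0). Neighbours in this order had ranges that did not touch, except Prpf8 with U2af2 and Sf3b1 with Sf3a1. Srsf2 was 791 ± 15 in the controls and 787 ± 36 in the knockouts, and Zrsr2 was 21.5 ± 1.0 and 20.7 ± 1.6. With the longest transcript as the length in place of all annotated exons, only Srsf2 (first), Sf3b1 (seventh) and Zrsr2 (last) held their places. Brd9 itself, on the scale of all exons, was 16.7 ± 1.4 in the controls, below Zrsr2, and 5.65 ± 1.0 in the knockouts.

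**Figure D4:**
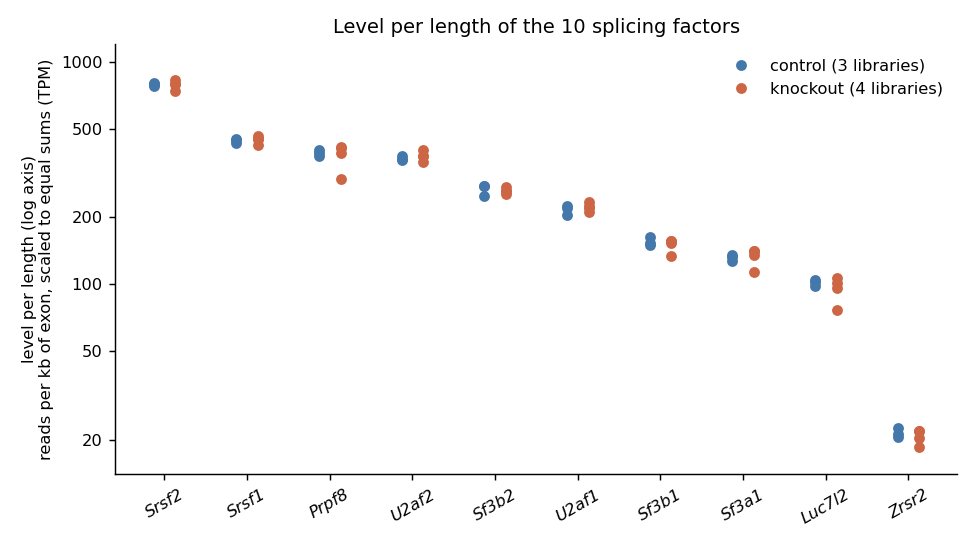
Level per length (TPM, log axis) of the 10 splicing factors in order of their mean; each point is a library, blue for control and red for knockout. The order runs from Srsf2 near 789 to Zrsr2 near 21.0. Knockout replicate 3 is the lowest point for 8 of the 10 genes on this scale, all but Sf3b2 and U2af1. In log2 CPM the same library lay above the control mean for Srsf1 (0.086), Srsf2 (0.040) and U2af2 (0.092). Its place thus depends on the scale, and the reason was not tested.

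The genes share few features that their choice did not fix. Of the 10, 4 lie on chromosome 11 of GRCm38: Sf3a1 (4160350 to 4182541), Prpf8 (75486816 to 75509449) and Srsf1 (88047373 to 88053755) on the plus strand and Srsf2 (116849901 to 116853094) on the minus strand. Sf3b2 is on chromosome 19 (5273932 to 5295455, minus), U2af1 on 17 (31647081 to 31658892, minus), U2af2 on 7 (5062143 to 5079938, plus) and Luc7l2 on 6 (38551334 to 38609470, plus). RefSeq's promoter table (GRCm38.p6, 300 bases around each gene start) holds 9 of them, all but U2af2. Those 9 promoters had a median of 23 CG dinucleotides, against 7 over all 32851 promoters in the table. Those 32851 were not matched to the 9 for the level of their genes. U2af1 had 40. Luc7l2 had 2, but its window (chr6:38555473-38555772) lies inside the gene and not at the start given above. That count therefore does not describe the start. The letters TATAAA, on either strand, occurred in 1 of 9 (Srsf2) and in 13.6% of all promoters, and CCGGAAG in 2 of 9 (Sf3b2 and Sf3a1) and in 8.86% of all. These are matches of letters, not binding sites.

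The rest of the spliceosome was read from 10 further lists with 93 tested genes. Of these 93, 0 rose, 0 fell and 93 did not pass in edgeR; 2 were higher and 4 lower at an unadjusted p under 0.05 (3.95% and 6.90% of all tested genes were), and DESeq2 called 0. Groups did not overlap in 8 of the 93 (11.2% over all tested genes). Above 0 were 69 of the 93 values (median 0.061, log2), and 7685 of 14679 over all tested genes (median 0.011).

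**Figure D5:**
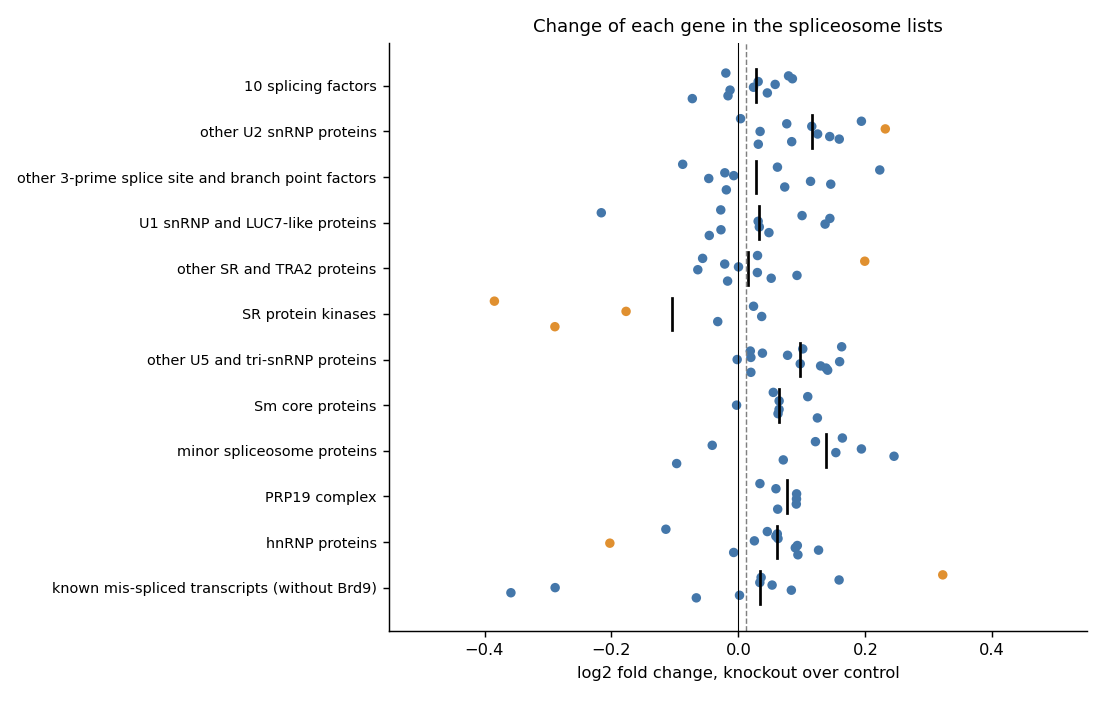
Log2 fold change (horizontal axis, knockout over control) of each tested gene in the 12 lists (rows); black bars are list medians, the dashed line is the median of all tested genes, and orange points have an unadjusted p under 0.05. Brd9, at -1.53, is off the axis and left out of its row; no plotted gene passed at an adjusted p under 0.05.

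The other U2 snRNP proteins were 11 of 11 above 0, with a median of 0.12; 10 of 11 were above 0 with total counts as the scale, with the length trend removed and without knockout replicate 3 (median 0.081), and 9 of 11 without control replicate 2 (median 0.047). None passed in edgeR or DESeq2. Sf3b4, an SF3b subunit, was the only one with an unadjusted p under 0.05, at 149 ± 14 CPM in the controls against 175 ± 17 CPM in the knockouts (log2 fold change 0.23, SE 0.098, edgeR adjusted p = 0.436). Snrpa1, which binds U2 RNA, had 106 ± 8 and 121 ± 14 CPM.

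Of 13 tested U5 and tri-snRNP proteins 12 were above 0, with a median of 0.097 (0.050 without knockout replicate 3, 0.049 without control replicate 2) and 0 calls. Eftud2, the GTPase that sits beside PRPF8, had 305 ± 22 and 336 ± 20 CPM, and Usp39 107.5 ± 1.1 and 120.3 ± 15.7 CPM. The 7 Sm core proteins, which ring the RNA of each snRNP, had a median of 0.064 with 0 calls, which turned to -0.030 without knockout replicate 3, -0.0035 without control replicate 2 and -0.011 with the length trend removed. Snrpb had 276 ± 14 and 301 ± 29 CPM and Snrpf 73.2 ± 9.6 and 79.0 ± 9.4 CPM. Of 8 minor spliceosome proteins, the machinery that Zrsr2 serves, 6 were above 0 and 0 passed (median 0.14, and 0.044 without knockout replicate 3). Scnm1 and Snrnp35 had the smallest p in that list, with log2 fold changes of 0.25 (SE 0.14) and 0.19 (SE 0.13). The 6 tested PRP19 complex genes had a median of 0.077, between 0.028 and 0.13 with 1 library left out, and 0 passed. Cdc5l and Crnkl1 had the smallest p there, both with a log2 fold change of 0.09.

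None of the relatives of the 10 genes passed either, though some had larger values. Luc7l had 146 ± 6 CPM in the controls against 141 ± 6 CPM in the knockouts, and Luc7l3 189 ± 5 and 196 ± 12 CPM. U2af1l4, a short relative of U2af1, had 25.9 to 27.4 CPM in the controls against 27.9 to 36.9 CPM in the knockouts. All 4 of its knockout values lay above the controls, with knockout replicate 3 the highest; the log2 fold change of 0.22 (SE 0.12, edgeR adjusted p = 0.561) did not pass and was 0.13 without that library. Puf60, which assists U2AF at the pyrimidine tract, likewise had groups that did not overlap, 179 ± 2 against 198 ± 14 CPM, and did not pass (log2 fold change 0.15, SE 0.077). In the U1 list Tia1 stood at -0.22 (SE 0.11) and Snrpa at 0.14 (SE 0.092).

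Among 10 tested SR and TRA2 proteins the median was 0.015, between -0.013 without knockout replicate 1 and 0.022 without control replicate 1, and 0 passed. Srsf9 had 77.8, 78.0 and 81.7 CPM in the controls against 95.6, 89.8, 92.5 and 85.7 CPM in the knockouts, so the groups did not overlap, but it did not pass over all genes (log2 fold change 0.20, SE 0.069, edgeR adjusted p = 0.328). Srsf3 had 554 ± 22 and 591 ± 53 CPM. Srsf12 was too low to be tested.

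The SR protein kinases, which phosphorylate Srsf1, Srsf2 and their relatives, were the only one of the 10 lists with a negative median, -0.10 over 6 genes and between -0.13 and -0.086 with 1 library left out, with total counts and with the length trend removed. At an unadjusted p under 0.05, 3 of the 6 were lower (6.90% of all tested genes were), and 0 passed in edgeR or DESeq2. That count was 2 with DESeq2, with no filter on low counts and in 5 of the 7 fits with 1 library left out. Clk1 had 125.5, 145 and 138 CPM in the controls against 101, 117, 115 and 113 CPM in the knockouts (log2 fold change -0.29, SE 0.081, edgeR adjusted p = 0.201). Srpk2 had 46.2, 62.2 and 49.1 CPM against 38.2, 41.2, 42.2 and 39.3 CPM (-0.38, SE 0.11, edgeR adjusted p = 0.220). In both genes every knockout lay below every control, and control replicate 2 was the highest. The third was Clk4, named after its value was seen, at -0.18. Of 12 hnRNP proteins Hnrnph1 had 598 ± 29 and 520 ± 29 CPM (-0.20, SE 0.082, edgeR adjusted p = 0.413) and Ptbp3 -0.11 (SE 0.075).

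The last list held 11 genes whose transcripts mutant splicing factors are known to mis-splice in human disease. Brd9 fell (log2 fold change -1.53, SE 0.15, edgeR adjusted p = 0.0037), the gene the design targets, 0 rose, and 10 did not pass. Of the targets of mutant SF3B1, Map3k7, a kinase of the NF-kB pathway, had 85.8 ± 2.0 CPM in the controls against 87.9 ± 2.1 CPM in the knockouts. Ppp2r5a, a regulatory subunit of protein phosphatase PP2A, had 89.8 ± 3.9 and 92.0 ± 6.9 CPM. Tmem14c, a porphyrin carrier of erythroid mitochondria, had 335, 269 and 349 CPM against 406, 394, 461 and 328 CPM, a log2 fold change of 0.32 (SE 0.13, edgeR adjusted p = 0.418) with groups that overlapped. Ppox, an enzyme of haem synthesis, had 127 ± 19 and 142 ± 26 CPM. Beside these 2 stand the erythroid marker sums given above, which were higher in every knockout than in any control; their part was not tested. Of the 8 marker genes 3 (Hba-a1, Hbb-bs and Alas2) were higher in every knockout, and the other 5, Tfrc, Epor and Klf1 among them, had groups that overlapped.

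Ezh2, the Polycomb methyltransferase whose transcript mutant SRSF2 sends to decay, had 188 ± 8 CPM in the controls against 180 ± 7 CPM in the knockouts, and Ints3 114 ± 7 and 121 ± 12 CPM. Lztr1, a target of ZRSR2 loss through a minor intron, had 54.1 ± 2.0 and 56.1 ± 3.2 CPM. Of genes tied to mutant U2AF1, Irak4 had 19.5 ± 2.8 and 15.98 ± 1.65 CPM, and H2afy, which encodes macroH2A1, had 360, 562 and 357 CPM in the controls against 273, 356, 336 and 365 CPM in the knockouts. Control replicate 2 was far above all others for H2afy; the log2 fold change was -0.36 (SE 0.17, edgeR adjusted p = 0.501). Gnas had 588 ± 4 and 589 ± 60 CPM. These are sums over all isoforms, so a shift between isoforms at equal total would not appear in them.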

How the data were processed

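Per the labels' protocols, polyA RNA was extracted on columns and made into libraries with a TruSeq stranded kit. The submitters' processing notes name HISAT2, mm10, featureCounts and DESeq2, with no versions; for annotation, strand setting and multi-mapping nothing is stated (not given in the sources used here). The deposited table holds raw read counts per symbol (35976 rows, 14 of them dates read back as septin or Sep15 symbols). The authors' deposited comparison holds log2 fold changes and standard errors, p-values, a test score and a signal, which is the count divided by a size factor. The 10 genes, a named set, and all lists were chosen with earlier results of these data known.

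Genes were filtered with filterByExpr, scaled by TMM and tested with edgeR 4.0.16 (glmQLFit, glmQLFTest, R 4.3.3), on group alone, with Benjamini-Hochberg adjustment over all 14679 tested genes. A standard error is the log2 fold change over the root of F, and 95% intervals use its degrees of freedom. The intervals were also tried on counts simulated from the fit's own spread, gene by gene. Those counts held no length trend and no difference in cell makeup, so the trial cannot show that the intervals hold in these libraries. Log2 CPM used a prior count of 2. Named are the 10 genes, Brd9, 4 paralogs, the 2 smallest p of each spliceosome list, the 11 genes of the mis-spliced list (1 gene was left out of it and is not reported here) and the 5 genes most like Sf3b1; predicted genes, clones and pseudogenes were left out of the last. Alternatives were DESeq2 1.42.0, limma-voom (3.58.1), other scalings and filters, robust dispersion, a replicate block, 1 surrogate variable (sva 3.50.0), Xist as a covariate, each library left out and, added later, the length trend removed. Lengths and overlaps come from GENCODE M21 (GRCm38), which matched 26763 rows and 93.5% of reads. One list symbol, Snu13, was found as Nhp2l1.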

Additional observations from a re-analysis of the deposited data

How the results depend on the processing

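None of the 10 splicing factors was called under any of the 18 alternatives, and Brd9 was called in all of them, with log2 fold changes from -1.60 to -1.42. The number of changed genes over all genes moved from 82 to 228 with no filter on low counts, 386 with DESeq2 and 52 once the Xist level was a covariate, and ran from 20 to 120 with single libraries left out (control replicates 2 and 3 left out gave 49 and 20, and knockout replicates 1, 2 and 4 gave 51, 21 and 37). It was 121 with the replicate block. At an unadjusted p under 0.05 the block gave 2431 genes, against 1593 without it. The labels do not say what a replicate number shares. The correlations of same-numbered deviations were 0.17, -0.022 and -0.0052, and not every library went best with its own number. With groups of 3 and 4 libraries these values cannot settle whether same-numbered libraries belong together. With the block U2af1 stood at 0.13 and Luc7l2 at -0.11, uncalled.

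Small log2 fold changes that were not called turned sign. Leaving out single libraries gave ranges of -0.038 to 0.0081 for Sf3b1, -0.0093 to 0.059 for Sf3b2, -0.083 to 0.056 for Prpf8, -0.18 to 0.022 for Zrsr1, -0.013 to 0.074 for Ppp2r5a, -0.062 to 0.052 for Gnas, -0.030 to 0.015 for Ubap2l, -0.12 to 0.069 for Pcgf3, -0.13 to 0.037 for Ankib1, -0.11 to 0.011 for Gtf3c4 and -0.13 to 0.035 for Chd1. With the length trend removed, the turned values were 0.064 (Sf3b1), -0.014 (Srsf2), 0.077 (Prpf8), 0.0063 (Ubap2l), 0.073 (Pcgf3), 0.035 (Ankib1), 0.046 (Gtf3c4) and 0.038 (Chd1). Prpf8 was 0.020 with the Xist level as a covariate and Zrsr1 0.017 with the replicate block. Gnas was -0.012 with total counts, -0.0026 with no filter and -0.0043 with limma-voom. Their cause was not tested. With the longest transcript as length, 3 of 10 genes held their place in the order of levels; the 5 genes most like Sf3b1 were the same 5 with a prior count of 0.5.

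The counts limit what can be said to whole-gene levels: splice choice, isoforms and alleles were not measured. Each gene's interval belongs to that gene, that fit and this mix of cells. It is not a limit on the change, in the mix or in blood cells alone. Without control replicate 3, that of U2af1 reached 1.31-fold.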
